A study of Rattus norvegicus with 9 samples.

Results

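The Trim genes encode the tripartite motif proteins, a family of ubiquitin ligases and their relatives. Members were taken from the deposited gene table by symbol and gene class: a protein-coding gene called Trim, followed by a number and at most 1 letter. The rule found 56 genes among 22324 genes in the table, of which 17949 were protein-coding. Of these 56, 42 had enough reads to be tested and 14 lay near the count floor. The cells were wild-type primary nucleus pulposus cells of the rat, which come from the gelatinous core of the intervertebral disc, and poly(A) RNA was sequenced from 3 groups of 3 libraries. The BNPMT group received an intervention during doxorubicin-induced senescence, and the labels neither expand the name nor give its dose or timing. Doxorubicin, a drug that breaks DNA, was used to bring on senescence in the SEN group. The NC group was taken as the control from its name and the series design. The treatment text stands on all 9 libraries, NC included, and gives 200 nM doxorubicin for 24 h followed by 6 days in fresh medium. It also gives 10% serum, for all 9 libraries alike. Nothing in the labels says that replicates are separate cultures, so the spread behind each p-value is that of these libraries and may be technical.

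A typical TRIM protein starts with a RING finger, B-box zinc fingers and a coiled coil, and ends in a part that differs between classes and often binds the target. The RING finger helps a conjugating enzyme pass ubiquitin to the target, which is then degraded, moved or altered in activity. The family is known for antiviral defence, muscle upkeep, gene silencing on chromatin and control of p53. The roles named below come mostly from human and mouse cells.

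The libraries held 35094282 to 41971877 reads in BNPMT, 31206834 to 38391586 in SEN and 34514440 to 41873790 in NC. Levels of 1 gene across libraries are given as CPM, the usual count rate per library size, here scaled by the trimmed mean of M values (TMM), whose factors averaged 1.136 in BNPMT, 0.802 in SEN and 1.097 in NC. Of 12 nucleus pulposus and cartilage markers 9 were tested: 6 rose and 3 fell in SEN against NC, 3 rose and 6 fell in BNPMT against SEN, and 1 rose and 5 fell in BNPMT against NC (adjusted p below 0.05, edgeR), where 37.6% and 38.5%, 40.7% and 39.9%, and 26.3% and 26.5% of all genes did. Col2a1, the main cartilage collagen, averaged 1730 CPM in BNPMT, 8100 CPM in SEN and 4170 CPM in NC. The transcription factor gene Pax1 averaged 131 CPM in BNPMT, 65.7 CPM in SEN and 123 CPM in NC, and Car3 and Foxf1 were the others that fell in SEN, while Tbxt, the notochordal transcription factor, had 21 reads in all 9 libraries. BNPMT 1 and SEN 1 stood apart from their replicates in how counts varied with gene length: the rank correlation of a library's deviation with length was 0.554 in BNPMT 1 against -0.466 and -0.345 in the other BNPMT libraries, and -0.439 in SEN 1 against 0.278 and 0.249 in the other SEN libraries.

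In senescent cells 15 of the 42 tested Trim genes rose and 15 fell against NC, and 12 did not pass the test. A gene was called when its adjusted p was below 0.05 in edgeR's quasi-likelihood test with Benjamini-Hochberg adjustment over all 14956 genes tested. Among all those genes 37.6% rose and 38.5% fell, 76.1% in all, so the family's 35.7% in each direction was near the background. The median log2 change was 0.06 over the tested Trim genes and -0.01 over all genes. Changes of at least 2-fold were called for 8 Trim genes upward and 5 downward, where 20.0% and 14.6% of all genes had them, 34.6% in all. Without TMM factors the median over all genes was -0.465, and 10 Trim genes then rose and 24 fell.

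Against SEN, 16 Trim genes rose and 20 fell in BNPMT, and 6 did not pass. Over all genes 40.7% rose and 39.9% fell, 80.6% in all. The family's median log2 change was -0.02, against 0.02 over all genes, and 4 Trim genes rose and 9 fell by at least 2-fold, where 17.4% and 22.0% of all genes did, 39.4% in all. Scaling by total counts alone shifted the median over all genes to 0.519, and 26 Trim genes then rose and 10 fell. This comparison shares its SEN libraries with the one of SEN against NC, so values of a gene in both are given side by side and not counted together.

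Against NC, 3 Trim genes rose in BNPMT (Trim24, Trim29 and Trim63) and 9 fell (Trim16, Trim23, Trim33, Trim35, Trim44, Trim46, Trim56, Trim66 and Trim71), and 30 did not pass. Of all genes 26.3% rose and 26.5% fell, 52.8% in either direction, where 28.6% of the tested Trim genes were called. Only Trim63 and Trim66 passed at 2-fold or more, 1 of them upward and 1 downward, against 2.67% and 3.60% of all genes, 6.27% in all. The median log2 change was -0.06 over the Trim genes and 0.00472 over all genes. The calls of Trim29, Trim44, Trim46, Trim63 and Trim66 held under every alternative run, and those of Trim16, Trim23, Trim24, Trim33, Trim35, Trim56 and Trim71 were lost under at least 1. Counts of called Trim genes were 5 higher and 7 lower with total counts alone, and 8 higher and 4 lower once each library's trend with gene length was removed (the length correction).

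**Figure D1:**
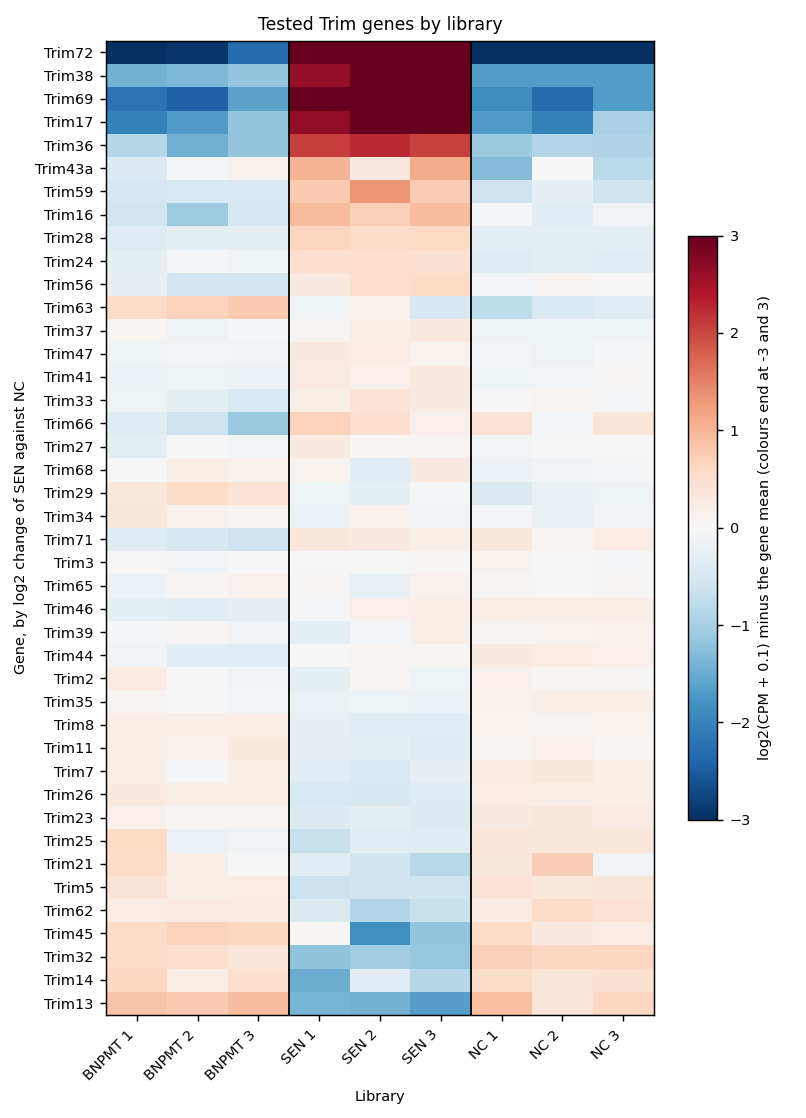
Level of each of the 42 tested Trim genes in the 9 libraries, as log2(CPM + 0.1) minus the gene's mean over libraries, with columns from BNPMT to SEN to NC and genes in order of the log2 change of SEN against NC. Trim72, Trim38, Trim69 and Trim17 at the top are high in the SEN libraries alone, and Trim13 and Trim32 near the bottom are low there.

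The Trim genes with the steepest rise in SEN were Trim72, Trim69, Trim17 and Trim38, which were close to the floor of 3 reads per library in BNPMT and NC. Trim72 (also called MG53) helps to patch torn plasma membranes in muscle. It had 0, 3 and 8 reads in the BNPMT libraries, 3184, 2346 and 2569 in the SEN libraries, and 1, 3 and 2 in the NC libraries. The SEN libraries lay far above all 6 others, and the BNPMT and NC libraries overlapped. Scaled by library totals, the sum over SEN was 1500 times that over NC, with a 95% counting interval of 690 to 4100, and the fitted log2 change was 10.91 ± 0.23 (SE, adjusted p = 8.22e-14, edgeR). Between BNPMT and SEN the log2 change was -10.15 ± 0.22 (adjusted p = 7.27e-14), and it was -11.31 without BNPMT 3 and -9.52 without BNPMT 1. The ratio of BNPMT to NC was 1.8, with an interval of 0.611 to 5.94. By fitted log2 change Trim72 ranked 15 from the top of 14956 genes in SEN against NC. Counting intervals cover counting error only.

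Trim69, which binds microtubules in human cells, had 5, 3 and 10 reads in BNPMT, 441, 418 and 428 in SEN and 6, 4 and 9 in NC. Every SEN library was above all others, and BNPMT and NC overlapped. The log2 change was 6.67 ± 0.23 in SEN against NC (adjusted p = 8.24e-12, edgeR) and -6.82 ± 0.23 in BNPMT against SEN (adjusted p = 6.24e-12). Trim17, a ligase linked to the death of mouse neurons, had 0, 1 and 4 reads in BNPMT, 76, 89 and 154 in SEN and 1, 0 and 5 in NC. SEN was again above both other groups without overlap. Its log2 change was 6.26 ± 0.58 against NC (adjusted p = 2.98e-07) and that of BNPMT against SEN was -6.57 ± 0.60 (adjusted p = 2e-07). For Trim17 the value against NC was 7.93 without NC 3 and 5.67 without NC 2, and that of BNPMT against SEN was -8.00 without BNPMT 3 and -5.97 without BNPMT 1. Trim38, which damps innate immune signalling, had 1, 1 and 2 reads in BNPMT, 58, 72 and 77 in SEN and 0, 0 and 0 in NC. With NC set to the floor, Trim38 was at least 25.8-fold higher in SEN (adjusted p = 5.57e-08), and BNPMT against SEN gave -6.24 ± 0.45 (adjusted p = 8.46e-08). Both BNPMT and NC were at or under the floor for Trim38, and no fold is given between them. With Trim38 at that bound the family's median in SEN against NC stayed at 0.0642. It could not move, since the bound and the fitted value both lie far above it.

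These 4 genes passed the count filter only through the SEN group, so they had to differ and are no sample of the family. Marker lists of other cell types were read beside them, and some rose in SEN while others fell. The summed leukocyte markers were 0.416 to 0.629 CPM in BNPMT, 31.5 to 36.2 CPM in SEN and 0.174 to 0.792 CPM in NC. Of 6 such markers 4 were measured: Cd68, a lysosomal protein of macrophages, averaged 28.2 CPM in SEN and the integrin gene Itgam 4.95 CPM, while Csf1r was at 0.503 CPM and Adgre1 at 0. Summed endothelial markers were 0.189 to 0.685 CPM in BNPMT, 5.24 to 5.81 CPM in SEN and 0.0434 to 0.158 CPM in NC, nearly all of it Pecam1 in SEN, with Cdh5 at 0.0218 CPM. For skeletal muscle 5 of 7 markers were measured, with sums of 48.5 to 54.9 CPM in BNPMT, 42.8 to 51.7 CPM in SEN and 31.8 to 34.7 CPM in NC. Of the 4 tested, 3 rose and 0 fell in SEN against NC, where 37.6% of all genes rose. Most of the sum was Des, at 48.4, 35.5 and 25.8 CPM in BNPMT, SEN and NC. In that order Ckm, the muscle creatine kinase, was at 0, 1.15 and 0 CPM and Acta1 at 1.66, 7.89 and 5.1 CPM. Tnnt3 was at 2.16, 1.78 and 2.24 CPM and Myh1 at 0.178, 0.0133 and 0.0593 CPM, both lowest in SEN. Smooth muscle markers went the other way: all 4 fell in SEN against NC, where 38.5% of all genes fell, 3 of 4 rose in BNPMT against SEN, where 40.7% rose, and all 4 fell in BNPMT against NC, where 26.5% fell. Their sums were 2170 to 2450 CPM in BNPMT, 1610 to 1840 CPM in SEN and 4040 to 4060 CPM in NC, and Acta2, the smooth muscle actin, averaged 1010 CPM in BNPMT, 485 CPM in SEN and 2180 CPM in NC. Neuron markers summed to 12.1 to 16.2 CPM in BNPMT, 26.4 to 33.7 CPM in SEN and 21.4 to 24 CPM in NC, nearly all of it Map2, with Rbfox3 at 3 reads in all, and erythroid markers stayed at or below 0.0327 CPM. The part of these cell types in the Trim72, Trim69, Trim17 and Trim38 results was not tested. In bulk RNA, fewer cells of a type and less RNA per cell cannot be told apart.

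Neighbours of these genes in RefSeq's order on the GRCr8 assembly did not all do the same. Trim72 lies between Pycard, the inflammasome adaptor, and Itgam. Pycard had 595 reads in BNPMT, 90 in SEN and 208 in NC, and its log2 change of -0.59 in SEN against NC did not pass (adjusted p = 0.0885, edgeR), whereas Itgam had 0, 417 and 0 reads. Trim17 lies between the histone gene H3f4, with 0, 57 and 0 reads, and Trim11, which fell in SEN by 0.40 on the log2 scale. Trim38 overlaps the histone gene H1f1, which had 24 reads in BNPMT, 106 in SEN and 19 in NC and rose in SEN by 3.07. No source names the strand setting of the counting, and reads of Trim38 and H1f1 may not be separable where the genes overlap. Trim69 lies between B2m, with a log2 change of 0.83 in SEN against NC, and Terb2, with 0, 9 and 0 reads.

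The promoters of these genes are shown because they moved together. RefSeq's table (GRCr8) holds 250 bases before and 50 after the start of 46 of the 56 genes, Trim69 not among them. Capitals mark a match to the repeat unit of the p53 response element, the sequence bound by the DNA-damage factor p53, searched on both strands. The Trim72 promoter lies on the plus strand at chr1:192043970-192044269, that of Trim17 on the plus strand at chr10:44242438-44242737 and that of Trim38 on the minus strand at chr17:41787660-41787959.
Trim72: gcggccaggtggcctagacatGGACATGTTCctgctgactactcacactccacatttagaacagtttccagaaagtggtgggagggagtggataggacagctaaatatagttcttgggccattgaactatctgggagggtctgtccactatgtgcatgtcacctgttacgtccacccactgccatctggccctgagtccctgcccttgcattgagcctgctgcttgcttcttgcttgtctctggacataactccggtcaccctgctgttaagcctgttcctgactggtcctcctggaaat
Trim17: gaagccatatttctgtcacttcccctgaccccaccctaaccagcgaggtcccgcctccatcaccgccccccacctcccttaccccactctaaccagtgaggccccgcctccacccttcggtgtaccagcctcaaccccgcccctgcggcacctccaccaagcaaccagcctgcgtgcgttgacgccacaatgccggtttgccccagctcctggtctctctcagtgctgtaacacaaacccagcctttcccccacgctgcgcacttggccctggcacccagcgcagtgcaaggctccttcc
Trim38: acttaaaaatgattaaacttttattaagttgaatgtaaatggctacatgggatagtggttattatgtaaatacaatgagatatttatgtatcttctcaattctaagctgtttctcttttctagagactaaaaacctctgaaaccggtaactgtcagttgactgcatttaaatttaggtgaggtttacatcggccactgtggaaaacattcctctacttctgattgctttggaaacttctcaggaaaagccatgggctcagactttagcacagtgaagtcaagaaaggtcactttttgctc
Trim72 held 1 repeat unit, at position -229 from the start, and Trim17 and Trim38 held none. The unit stood in 7 of the 46 promoters (Trim24, Trim36, Trim37, Trim41, Trim52, Trim58 and Trim72), which is 15.2%, and in 7.98% of 33469 rat promoters of the same length. The full p53 response element, a pair of units up to 13 bases apart, was in none of the 46 and in 0.0598% of all promoters. A match is a run of letters and not a measured site.

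**Figure D2:**
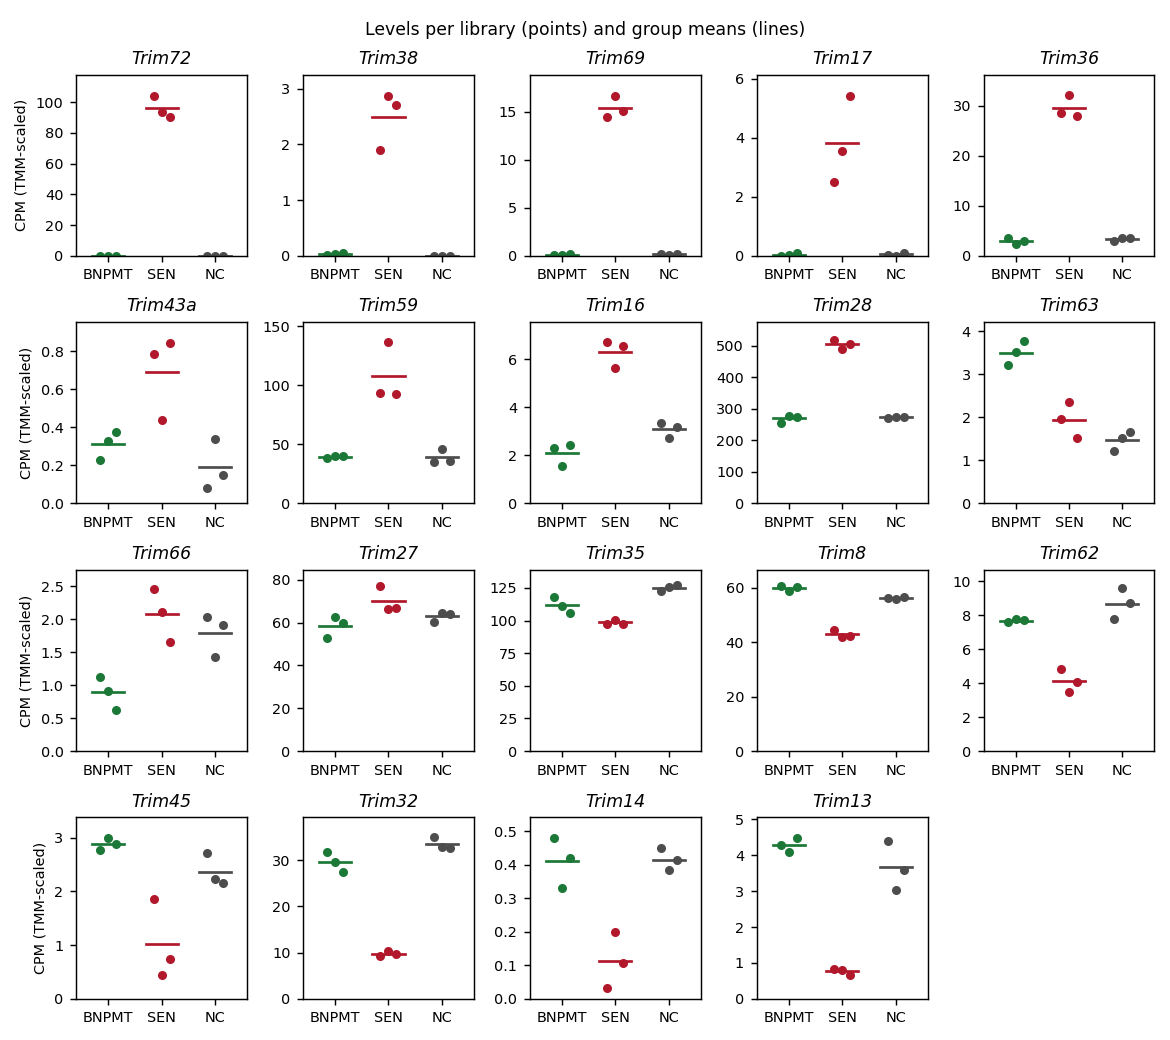
Level of 19 Trim genes in each library, in TMM-scaled CPM on a linear axis from 0, with points for libraries, lines for group means of 3 libraries, and groups in the order BNPMT, SEN and NC (axes differ between genes). Trim72 stands at 90.3 to 104 CPM in SEN and below 0.2 CPM elsewhere, and Trim32 at 9.15 to 10.3 CPM in SEN, below its levels in BNPMT and NC.

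Among the other genes that rose in SEN by at least 2-fold, Trim36, Trim59 and Trim16 were above 1 CPM in every library, and Trim43a was not. Trim36, a microtubule-binding member of the class with COS, FN3 and SPRY domains, had 3.66, 2.41 and 2.96 CPM in BNPMT, 28.6, 32.1 and 28.0 CPM in SEN and 3.06, 3.61 and 3.54 CPM in NC. The SEN libraries were all higher, with no overlap. The test gave a log2 change of 3.11 ± 0.13 against NC (adjusted p = 6.11e-11, edgeR) and that of BNPMT against SEN was -3.29 ± 0.13 (adjusted p = 3.35e-11), or -2.69 for Trim36 after the length correction. Trim59, anchored in the membrane of the endoplasmic reticulum, had 38.5, 40.0 and 39.9 CPM in BNPMT, 93.7, 137 and 92.9 CPM in SEN and 35.4, 46.2 and 36.2 CPM in NC. SEN 2 was the highest library, and no SEN library overlapped the other groups. The log2 change of Trim59 was 1.46 ± 0.14 against NC (adjusted p = 3.15e-07) and that of BNPMT against SEN was -1.45 ± 0.14 (adjusted p = 2.77e-07).

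Trim16 lacks a RING finger and takes part in clearing damaged lysosomes in human cells. It had 2.33, 1.55 and 2.43 CPM in BNPMT, 6.73, 5.66 and 6.57 CPM in SEN and 3.35, 2.73 and 3.17 CPM in NC. The 3 groups did not overlap, with BNPMT lowest. The fitted change on the log2 scale was 1.04 ± 0.17 in SEN against NC (adjusted p = 6.82e-05, edgeR), -1.58 ± 0.17 in BNPMT against SEN (adjusted p = 1.39e-06) and -0.54 ± 0.18 in BNPMT against NC (adjusted p = 0.0207). The last of these missed the threshold without BNPMT 2, NC 1 or NC 3, with adjusted p = 0.0826, 0.0721 and 0.0561. Trim43a had 0.229, 0.330 and 0.378 CPM in BNPMT, 0.785, 0.438 and 0.843 CPM in SEN and 0.0792, 0.338 and 0.152 CPM in NC. SEN was higher than both without overlap, at levels near the filter. Its log2 change was 1.83 ± 0.47 against NC (adjusted p = 0.00279), and 2.51 without NC 2. In BNPMT against SEN it was -1.15 ± 0.43 (adjusted p = 0.0249), a call lost without SEN 1, SEN 3 or BNPMT 1 (adjusted p = 0.0772, 0.0955 and 0.0841) and with total counts alone (adjusted p = 0.175). Trim43a has close copies and overlaps Zfp949, so its reads are uncertain.

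The chromatin class, with a PHD finger and a bromodomain, had 4 tested members. In SEN 3 of them rose, against 37.6% of all genes, and in BNPMT against SEN all 4 fell, against 39.9%. The class is small and was singled out with the results known. In SEN against NC, 7 of 20 tested SPRY members rose and 8 fell. Of 4 tested NHL members 0 rose and 1 fell, and of 4 RING-less members 1 rose and 2 fell. In BNPMT against SEN, 8 SPRY members rose and 8 fell, with 1 and 1 for NHL and 2 and 2 for RING-less members. Trim28 (KAP1), the co-repressor that zinc-finger proteins use to silence retroelements, had 256, 278 and 275 CPM in BNPMT, 519, 490 and 504 CPM in SEN and 271, 274 and 274 CPM in NC. SEN was higher in every library, and BNPMT and NC overlapped. The log2 change was 0.89 ± 0.05 against NC (adjusted p = 1.83e-09, edgeR), -0.90 ± 0.05 in BNPMT against SEN (adjusted p = 1.27e-09) and -0.02 ± 0.05 in BNPMT against NC (adjusted p = 0.794). Trim28 overlaps Chmp2a in RefSeq. Trim24, a coregulator of nuclear receptors and a ligase for p53, averaged 21.0 ± 1.66 CPM in BNPMT, 32.7 ± 0.643 CPM in SEN and 18.4 ± 0.407 CPM in NC (SD, n = 3 each). It rose in SEN by 0.83 and its value in BNPMT against SEN was -0.64, a call lost with total counts alone (adjusted p = 0.0818). The log2 change of 0.19 for Trim24 in BNPMT against NC (adjusted p = 0.0398, edgeR) was lost without BNPMT 2, BNPMT 3, SEN 3, NC 1, NC 2 or NC 3, with adjusted p of 0.0534 to 0.188. That call was also lost without a filter on low counts (adjusted p = 0.0841) and in the 2-group fit (adjusted p = 0.0574).

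Trim33, which acts on SMAD4 in TGF-beta signalling, averaged 32.6 ± 3.38 CPM in BNPMT, 49.6 ± 4.33 CPM in SEN and 40.6 ± 1.99 CPM in NC (SD, n = 3 each). It rose in SEN by 0.29, which became -0.16 with total counts alone, fell in BNPMT by 0.60 against SEN and fell by 0.32 against NC. After the length correction none of these 3 values for Trim33 passed (adjusted p = 0.461, 0.306 and 0.83). Trim66, known from the testis, had 1.12, 0.914 and 0.629 CPM in BNPMT, 2.45, 2.11 and 1.65 CPM in SEN and 2.03, 1.42 and 1.91 CPM in NC. BNPMT lay below both others, and SEN and NC overlapped. Its log2 change was -1.22 ± 0.26 in BNPMT against SEN (adjusted p = 0.000716, edgeR) and -1.0 ± 0.26 in BNPMT against NC (adjusted p = 0.00507). After the length correction the first was -0.59 (adjusted p = 0.0509). In SEN against NC the Trim66 value of 0.22 did not pass (adjusted p = 0.437) and was -0.24 with total counts alone and -0.07 after the length correction. Trim66 overlaps the abundant ribosomal gene Rpl27a.

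Of the genes that fell in SEN, Trim13 and Trim32 had the smallest adjusted p among those down by at least 2-fold. Trim13, which sits in the endoplasmic reticulum and helps to degrade its proteins, had 4.28, 4.09 and 4.49 CPM in BNPMT, 0.817, 0.796 and 0.668 CPM in SEN and 4.41, 3.02 and 3.60 CPM in NC. All SEN libraries were below all others, and BNPMT and NC overlapped. The test gave a log2 change of -2.27 ± 0.20 against NC (adjusted p = 2.06e-07, edgeR) and that of BNPMT against SEN was 2.49 ± 0.20 (adjusted p = 5.65e-08). Trim32, a ligase with NHL repeats that is mutated in a human muscular dystrophy, had 31.8, 29.7 and 27.5 CPM in BNPMT, 9.15, 10.3 and 9.59 CPM in SEN and 35.0, 32.8 and 32.5 CPM in NC. SEN was lowest, and every BNPMT library lay below every NC library. The fitted change on the log2 scale was -1.79 ± 0.08 in SEN against NC (adjusted p = 1.78e-10), a fall of 3.45-fold, and 1.62 ± 0.08 in BNPMT against SEN (adjusted p = 4.49e-10). In BNPMT against NC the Trim32 value of -0.17 ± 0.07 did not pass (adjusted p = 0.064) and was -0.23 without BNPMT 1 (adjusted p = 0.0131). Trim32 lies within Astn2, whose log2 change of -0.18 in SEN against NC did not pass (adjusted p = 0.522, edgeR).

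The promoters of Trim32 (plus strand, chr5:84020382-84020681) and Trim13 (plus strand, chr15:39939646-39939945) from the same RefSeq table are shown to set beside those of the genes that rose, and hold no match in capitals.
Trim32: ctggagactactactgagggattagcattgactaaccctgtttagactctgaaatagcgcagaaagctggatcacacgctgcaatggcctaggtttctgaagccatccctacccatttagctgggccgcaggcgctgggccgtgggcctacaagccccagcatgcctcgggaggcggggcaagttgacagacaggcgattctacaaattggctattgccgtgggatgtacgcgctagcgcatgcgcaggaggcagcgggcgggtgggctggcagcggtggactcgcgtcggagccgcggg
Trim13: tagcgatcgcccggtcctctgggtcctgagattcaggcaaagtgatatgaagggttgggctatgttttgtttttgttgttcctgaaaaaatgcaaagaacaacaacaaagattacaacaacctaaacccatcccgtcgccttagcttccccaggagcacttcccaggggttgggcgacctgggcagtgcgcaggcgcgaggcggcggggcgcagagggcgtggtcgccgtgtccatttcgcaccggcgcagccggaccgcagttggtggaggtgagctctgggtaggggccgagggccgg
The promoters of Trim32 and Trim13 had a GC content of 60.7% and 59.7%, and those of Trim72, Trim17 and Trim38 had 52.7%, 64.3% and 35.3%.

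Trim14, a RING-less adaptor of antiviral signalling, had 0.478, 0.330 and 0.420 CPM in BNPMT, 0.0327, 0.199 and 0.105 CPM in SEN and 0.449, 0.384 and 0.412 CPM in NC. SEN was lowest in every library, with 9 reads in all. Trim14 passed the count filter only through BNPMT and NC, so a fall in SEN was favoured beforehand. Scaled by library totals, its SEN sum was 0.189 times that of NC (95% counting interval 0.082 to 0.387). The log2 change was -1.91 ± 0.50 against NC (adjusted p = 0.00324, edgeR) and that of BNPMT against SEN was 1.91 ± 0.50 (adjusted p = 0.00298). For Trim14 these were -2.56 and 2.55 without SEN 2, and the second was 1.32 without SEN 1 and BNPMT 1 together (adjusted p = 0.0496). Trim45, which represses MAP kinase signalling in human cells, had 2.77, 3.0 and 2.87 CPM in BNPMT, 1.86, 0.438 and 0.738 CPM in SEN and 2.72, 2.23 and 2.15 CPM in NC. SEN was lower without overlap, but SEN 1 stood well above the other SEN libraries. The log2 change of Trim45 was -1.18 ± 0.34 against NC (adjusted p = 0.00601) and that of BNPMT against SEN was 1.46 ± 0.33 (adjusted p = 0.00108). Without SEN 1 they were -1.99 and 2.27. Trim62, a regulator of epithelial polarity, had 7.59, 7.77 and 7.70 CPM in BNPMT, 4.84, 3.46 and 4.08 CPM in SEN and 7.76, 9.59 and 8.73 CPM in NC. SEN was lower without overlap. The test gave a log2 change of -1.07 ± 0.13 against NC (adjusted p = 4.69e-06, edgeR) and that of BNPMT against SEN was 0.89 ± 0.13 (adjusted p = 2.63e-05).

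**Figure D3:**
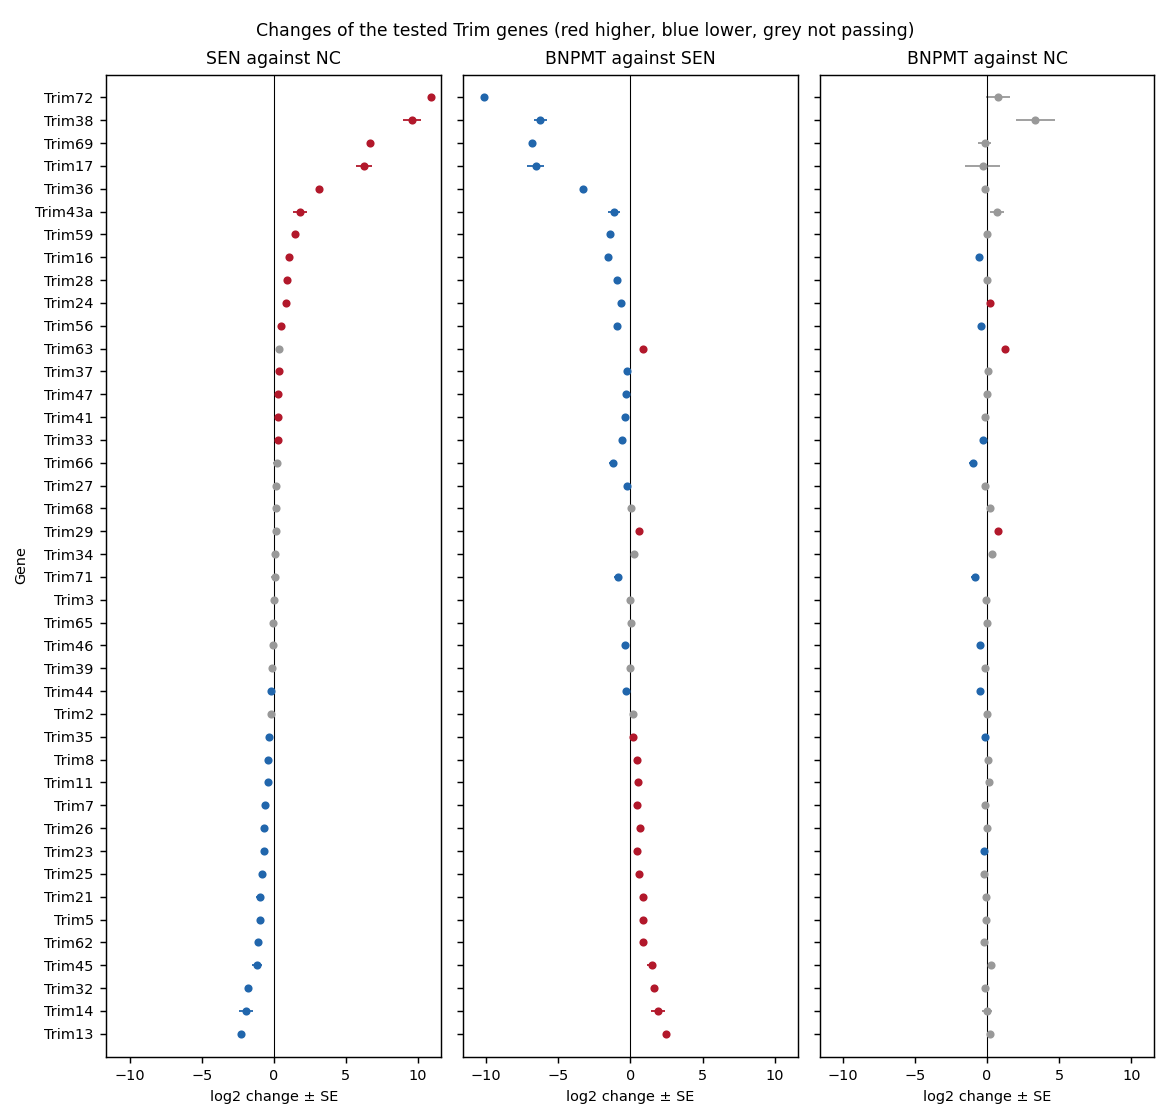
Fitted log2 change ± SE of the 42 tested Trim genes in the 3 comparisons, with genes in 1 order and red for higher, blue for lower and grey for not passing at an adjusted p of 0.05. Points reach from -10.15 to 10.91 for Trim72, while most genes lie within 2 log2 units; the Trim38 points of SEN and BNPMT against NC rest on 0 reads in NC and are no measured size.

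Some members with roles in antiviral defence, taken here from textbook knowledge and not from a set list, went in different directions. Trim38 and Trim56 rose in SEN against NC, and Trim5, Trim14, Trim21, Trim23, Trim25 and Trim26 fell. Over all genes 37.6% rose and 38.5% fell, and the split among these members depends on which are named. Trim5, known in primates for blocking retroviral capsids, averaged 16.4 ± 1.23 CPM in BNPMT, 8.88 ± 0.171 CPM in SEN and 17.5 ± 0.586 CPM in NC (SD, n = 3 each), with log2 changes of -0.98 in SEN against NC and 0.89 in BNPMT against SEN. Trim21, the antibody receptor of the cytosol, averaged 3.45 ± 0.742 CPM in BNPMT, 1.87 ± 0.34 CPM in SEN and 3.65 ± 1.07 CPM in NC, with -0.96 and 0.88. Trim25, the ligase of the RNA sensor RIG-I, averaged 24.5 ± 7.83 CPM in BNPMT, 16.2 ± 2.08 CPM in SEN and 28.2 ± 0.231 CPM in NC, with -0.80 and 0.60. All 6 of these values were called (adjusted p between 1.24e-07 and 0.0052, edgeR). Of the BNPMT libraries, BNPMT 1 had 33.5 CPM of Trim25 and the others 19.3 and 20.6 CPM, and the value of BNPMT against SEN was 0.32 without BNPMT 1 (adjusted p = 0.00514, edgeR) and 0.21 without BNPMT 1 and SEN 1 (adjusted p = 0.0187). Trim26 fell in SEN by 0.65 and Trim23, which carries an ARF domain and acts in antiviral autophagy, fell by 0.66, with 0.67 and 0.46 in BNPMT against SEN. Trim56, which promotes signalling by the DNA sensor pathway, averaged 34.2 ± 4.45 CPM in BNPMT, 64.6 ± 7.40 CPM in SEN and 46.7 ± 2.0 CPM in NC. It rose in SEN by 0.47, a call lost with total counts alone (adjusted p = 0.893), and fell in BNPMT by 0.92 against SEN and by 0.45 against NC. The last 2 Trim56 values were -0.31 and -0.12 after the length correction (adjusted p = 0.000133 and 0.10). Trim34, Trim65 and Trim68 passed in none of the 3 comparisons.

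Several of these genes are induced by interferon in other cells, and the Trim21 promoter is shown for the letters that such genes share. Capitals mark 2 overlapping matches to the core of the interferon-stimulated response element, a pair of GAAA runs with 2 bases between them, searched on both strands. It lies on the minus strand at chr1:166399322-166399621 (RefSeq, GRCr8).
Trim21: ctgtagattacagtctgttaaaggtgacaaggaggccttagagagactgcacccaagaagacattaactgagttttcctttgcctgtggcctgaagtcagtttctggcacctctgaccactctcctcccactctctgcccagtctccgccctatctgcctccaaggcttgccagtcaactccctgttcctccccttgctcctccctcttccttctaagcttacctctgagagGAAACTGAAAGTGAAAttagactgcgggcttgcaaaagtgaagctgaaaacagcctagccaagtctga
The core stood in 4 of the 46 promoters (Trim21, Trim26, Trim34 and Trim40), which is 8.7%, and in 3.92% of all promoters. Of 18 interferon-stimulated genes 11 were tested: in SEN against NC 3 rose and 5 fell, in BNPMT against SEN 5 rose and 2 fell, and in BNPMT against NC 4 rose and 1 fell. Over all genes 37.6% rose and 38.5% fell in the first comparison, 40.7% and 39.9% in the second and 26.3% and 26.5% in the third. In SEN against NC the 3 rises were those of Isg15 (2.51), Usp18 (1.86) and the transcription factor Irf7 (1.56) on the log2 scale, of which Isg15 and Usp18 averaged under 1 CPM in every group. Among the falls were those of Parp14 (-2.56), Ifit2 (-2.41), the transcription factor Stat2 (-0.99) and its partner Irf9 (-0.68).

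Among the most abundant members, levels are compared between genes as deposited FPKM, a count divided by gene length and library total, with no TMM factor. Trim28 led in every group with 92.1 ± 3.11 FPKM in BNPMT, 121.7 ± 2.86 FPKM in SEN and 90.1 ± 0.667 FPKM in NC (SD, n = 3 each). Trim35, which binds pyruvate kinase in human cells, followed in BNPMT and NC with 34.0 ± 2.23 FPKM in BNPMT, 21.2 ± 0.446 FPKM in SEN and 36.7 ± 0.758 FPKM in NC. Trim72 was second in SEN at 31.1 ± 2.17 FPKM, and Trim59 was next at 26.7 ± 6.32 FPKM, an SD that spans the gap to Trim72. Summed over the 56 genes the level was 341 ± 6.49 FPKM in BNPMT, 346 ± 3.45 FPKM in SEN and 346 ± 2.11 FPKM in NC. With TMM factors the summed CPM was 1110 ± 19.6 in BNPMT, 1570 ± 17.9 in SEN and 1190 ± 9.79 in NC. How the family total in SEN compares with the other groups therefore depends on the scaling. Trim28 made up 27 ± 1.4% of the summed FPKM in BNPMT, 35.2 ± 1.09% in SEN and 26 ± 0.17% in NC, and Trim72 0.011%, 8.97% and 0.00585%.

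In TMM-scaled CPM, Trim35 had 118, 111 and 106 in BNPMT, 97.6, 101 and 97.7 in SEN and 122, 126 and 127 in NC. The 3 groups did not overlap, with SEN lowest. Its log2 change was -0.34 ± 0.06 in SEN against NC (adjusted p = 6.67e-05, edgeR), 0.18 ± 0.06 in BNPMT against SEN (adjusted p = 0.00835) and -0.16 ± 0.06 in BNPMT against NC (adjusted p = 0.0237). The second was lost with DESeq2's size factors (adjusted p = 0.0706) and its Wald test (adjusted p = 0.0635). The third was lost without BNPMT 2, BNPMT 3, NC 2 or NC 3 (adjusted p = 0.0583, 0.125, 0.0674 and 0.0756). It was also lost with total counts alone (adjusted p = 0.117) and after the length correction (adjusted p = 0.0598). Trim8, which bears on p53 and cytokine signalling, had 60.7, 58.9 and 60.1 CPM in BNPMT, 44.4, 42.0 and 42.1 CPM in SEN and 56.2, 55.8 and 56.6 CPM in NC. SEN was lowest and BNPMT highest without overlap. The log2 change of Trim8 was -0.39 ± 0.05 in SEN against NC (adjusted p = 1.39e-05), 0.48 ± 0.05 in BNPMT against SEN (adjusted p = 1.5e-06) and 0.09 ± 0.05 in BNPMT against NC, which did not pass (adjusted p = 0.162) but did with total counts alone (adjusted p = 0.0374). Trim27, a ligase first known from a fusion with the RET oncogene, had 52.5, 62.8 and 59.6 CPM in BNPMT, 77.1, 66.4 and 67.0 CPM in SEN and 60.4, 64.5 and 63.9 CPM in NC. SEN lay above both, and BNPMT and NC overlapped. Trim27 fell in BNPMT by 0.27 ± 0.08 against SEN (adjusted p = 0.00566, edgeR), which became 0.23 with total counts alone, was -0.12 without BNPMT 1 and SEN 1 (adjusted p = 0.0437) and missed the threshold after the length correction (adjusted p = 0.0532). Its 0.16 ± 0.08 in SEN against NC did not pass (adjusted p = 0.0773) and was -0.29 with total counts alone (adjusted p = 0.00208), while DESeq2 called it at 0.22 (adjusted p = 0.0165).

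The muscle ligase Trim63 (MuRF1), which drives breakdown of muscle fibres, had 3.22, 3.53 and 3.78 CPM in BNPMT, 1.96, 2.35 and 1.51 CPM in SEN and 1.22, 1.53 and 1.67 CPM in NC. BNPMT lay above both other groups, which overlapped. The fitted change on the log2 scale was 0.86 ± 0.19 in BNPMT against SEN (adjusted p = 0.000984, edgeR) and 1.24 ± 0.19 in BNPMT against NC (adjusted p = 0.000131). In SEN against NC the Trim63 value of 0.38 ± 0.21 did not pass (adjusted p = 0.109). It passed without SEN 3, at 0.53 (adjusted p = 0.0404, edgeR), and was -0.07 with total counts alone. Its muscle relatives Trim54 and Trim55 were near the floor. Trim29, a RING-less protein of epithelia, averaged 1.77 ± 0.146 CPM in BNPMT, 1.16 ± 0.116 CPM in SEN and 1.05 ± 0.116 CPM in NC (SD, n = 3 each). It rose in BNPMT by 0.74 against NC (adjusted p = 0.00717, edgeR) and by 0.60 against SEN (adjusted p = 0.0168), a call lost without BNPMT 2 or SEN 2 (adjusted p = 0.0504 and 0.0505).

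Trim44, another RING-less member, averaged 75.0 ± 6.99 CPM in BNPMT, 92.2 ± 3.43 CPM in SEN and 103 ± 4.0 CPM in NC. It fell in BNPMT by 0.46 against NC (adjusted p = 0.000105, edgeR) and by 0.30 against SEN, which became 0.21 with total counts alone and 0.07 after the length correction. In SEN against NC Trim44 fell by 0.16 (adjusted p = 0.0416), a call lost without SEN 1, SEN 3, NC 1 or NC 2 (adjusted p = 0.0591 to 0.109) and with DESeq2 (adjusted p = 0.199). That call was also lost with DESeq2's size factors in edgeR (adjusted p = 0.175) and a filter of 1 CPM in 3 libraries (adjusted p = 0.105). Trim46, a microtubule organiser of the axon, averaged 5.67 ± 0.162 CPM in BNPMT, 7.48 ± 0.664 CPM in SEN and 7.94 ± 0.0377 CPM in NC. It fell in BNPMT by 0.48 against NC and by 0.40 against SEN, which became 0.11 with total counts alone. Trim46 overlaps Krtcap2, which had 12391 reads in BNPMT, 8763 in SEN and 10199 in NC. Trim71, the stem cell protein LIN-41 with NHL repeats, averaged 0.452 ± 0.0504 CPM in BNPMT, 0.831 ± 0.055 CPM in SEN and 0.799 ± 0.0749 CPM in NC. It fell in BNPMT by 0.88 against SEN (adjusted p = 0.00944, edgeR) and by 0.82 against NC (adjusted p = 0.0183). The call for Trim71 against SEN was lost with total counts alone (adjusted p = 0.214) and after the length correction (adjusted p = 0.27), and that against NC without BNPMT 3 or NC 1 (adjusted p = 0.0715 and 0.0602). The call against NC was also lost after the length correction (adjusted p = 0.138) and without a filter on low counts (adjusted p = 0.0529).

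Of the remaining called genes, Trim37, a centrosome regulator, rose in SEN by 0.33 (-0.12 with total counts alone) and fell in BNPMT against SEN by 0.24 (0.26 with total counts alone and 0.19 after the length correction). That fall of Trim37 also missed the threshold without BNPMT 2 or SEN 3 (adjusted p = 0.0576 and 0.0543, edgeR) and without a filter on low counts (adjusted p = 0.0528). Trim41 rose in SEN by 0.29 and fell in BNPMT against SEN by 0.41, with -0.16 and 0.10 on total counts alone. Trim47 rose in SEN by 0.30 and fell in BNPMT against SEN by 0.31, with -0.15 and 0.19 on total counts alone, and the Trim47 rise was lost after the length correction (adjusted p = 0.154). Trim7, a partner of glycogenin, fell in SEN by 0.59 and rose in BNPMT against SEN by 0.45. Trim11, which removes misfolded nuclear proteins, fell in SEN by 0.40 and rose in BNPMT against SEN by 0.51. Trim23 fell in BNPMT against NC by 0.19 (adjusted p = 0.0268, edgeR), a call lost without BNPMT 2, BNPMT 3, NC 1 or NC 2 (adjusted p = 0.0547 to 0.102). That call was also lost with total counts alone (adjusted p = 0.0983), after the length correction (adjusted p = 0.112) and without a filter on low counts (adjusted p = 0.0657). Trim2 and Trim3, ligases of neurons with NHL repeats, and Trim39 passed in no comparison; Trim3 averaged 40.0 ± 1.29 CPM in BNPMT, 40.8 ± 0.734 CPM in SEN and 41.4 ± 2.14 CPM in NC (SD, n = 3 each).

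**Figure D4:**
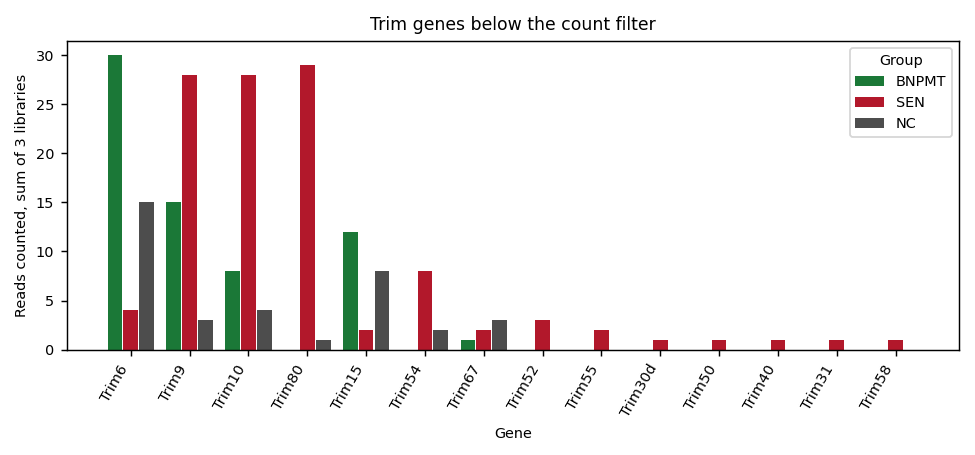
Reads summed over the 3 libraries of each group for the 14 Trim genes that did not pass the count filter, with bars for BNPMT, SEN and NC in that order and a linear axis from 0. No bar exceeds 30 reads; Trim6 is highest in BNPMT, and Trim9, Trim10 and Trim80 are highest in SEN.

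The 14 genes near the count floor were Trim6, Trim9, Trim10, Trim15, Trim30d, Trim31, Trim40, Trim50, Trim52, Trim54, Trim55, Trim58, Trim67 and Trim80. None had over 15 reads in any library. Trim80 had 0, 0 and 0 reads in BNPMT, 9, 11 and 9 in SEN and 0, 0 and 1 in NC. The SEN sum of Trim80 was 32.3 times that of NC (95% counting interval 5.35 to 1320), and BNPMT was at least 3.68-fold lower than SEN against the floor of 3 reads per library. Trim9, a brain ligase that binds microtubules, had 5, 3 and 7 reads in BNPMT, 13, 8 and 7 in SEN and 1, 1 and 1 in NC. Trim10, known from red cell development, had 8 reads in BNPMT, 28 in SEN and 4 in NC, a SEN to NC ratio of 7.79 (2.73 to 30.6). Trim6 had 9, 6 and 15 reads in BNPMT, 2, 0 and 2 in SEN and 3, 9 and 3 in NC, and its BNPMT to SEN ratio was 6.62 (2.33 to 25.9). Trim15 had 12 reads in BNPMT, 2 in SEN and 8 in NC. Trim54 had 10 reads in all, Trim67 6, Trim52 3 and Trim55 2, and Trim30d, Trim31, Trim40, Trim50 and Trim58 had 1 read each. A filter of 1 CPM in 3 libraries put 17 genes near the floor, adding Trim14, Trim43a and Trim71. Trim5, Trim6, Trim30d and Trim34 lie side by side and are close copies, and Trim10 and Trim15 overlap, so reads may be shared among them.

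Family relatives with other names and genes of the ubiquitin-conjugating machinery that works with RING ligases were read beside the Trim genes. Of 9 relatives 5 were tested: 0 rose and 3 fell in SEN against NC, 2 rose and 1 fell in BNPMT against SEN, and 1 rose and 2 fell in BNPMT against NC. In either direction 76.1%, 80.6% and 52.8% of all genes were called in these comparisons. Pml, which builds nuclear bodies, averaged 47.3 ± 3.19 CPM in BNPMT, 25 ± 2.17 CPM in SEN and 43.1 ± 0.538 CPM in NC (SD, n = 3 each), with log2 changes of -0.79 in SEN against NC (adjusted p = 3.38e-07, edgeR) and 0.92 in BNPMT against SEN (adjusted p = 5.7e-08). Mid1, a microtubule-bound ligase, fell in BNPMT by 0.61 against SEN and by 0.56 against NC. All 13 genes of the ubiquitin list, the activating enzyme gene Uba1 included, were tested. Here 5 rose and 4 fell in SEN against NC, 6 and 4 in BNPMT against SEN, and 6 and 0 in BNPMT against NC. That is 9, 10 and 6 of 13, against the same 76.1%, 80.6% and 52.8% of all genes, and 26.3% of all genes rose in BNPMT against NC. Ube2d3, a frequent partner of RING ligases, averaged 245 ± 8.71 CPM in BNPMT, 593 ± 92.7 CPM in SEN and 240 ± 23.3 CPM in NC, with 1.30 in SEN against NC and -1.27 in BNPMT against SEN. For its close relative Ube2d1 these log2 changes were -0.88 and 1.21.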

How the data were processed

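Per the submitters' processing notes, reads were handled with fastp, HISAT2 and HTSeq on the rat build mRatBN7.2; no source used here names versions, annotation or strand setting. The authors deposited read counts per gene and FPKM for 9 libraries; the deposited FPKM equals the count divided by gene length and library total, so it holds no factor for composition. Counts were tested with edgeR 4.0.16 (R 4.3.3): TMM factors, filterByExpr with a minimum count of 10 (about 0.26 CPM), 1 model over 3 groups, the quasi-likelihood test and Benjamini-Hochberg adjustment over 14956 genes; the standard error is the log2 change divided by the root of F. The procedure was run on simulated counts for SEN against NC, with 50 genes changed at each fold. It recovered 68% of 1.5-fold, 78% of 2-fold, 92% of 3-fold and 94% of 4-fold changes. It also called 8 unchanged genes, with 14695 genes in the fit. Few genes were changed there, unlike in these data, so the simulation cannot test the TMM scaling. A count of 3 per library was the floor, and counting intervals are exact at 95%. Library values are given for genes called with at least a 2-fold change in any comparison, for the 5 highest by FPKM, and for Trim32 and Trim72; others are given by group means, changes or counts. The members, lists and alternatives were chosen with earlier results of these data known. Alternatives were DESeq2 (1.42.0), 2 other scalings, 2 other filters, a length correction, 2-group fits, a replicate block and libraries left out. Gene identifiers of all 56 genes matched RefSeq's GRCr8 table, used for names, order and promoters only. A search for the RING pattern in the proteins was planned and not run.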

Additional observations from a re-analysis of the deposited data

How the results depend on the processing

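Over 18 alternatives, 9 of them leaving out 1 library each, 58 of 96 gene results kept direction and side of the threshold throughout. Leaving out 1 library each gave 15 to 18 higher, 14 to 16 lower and a median of -0.00801 to 0.122 in SEN against NC; 15 to 16, 19 to 23 and -0.23 to -0.0062 in BNPMT against SEN; and 2 to 3, 6 to 11 and -0.08 to -0.04 in BNPMT against NC. With total counts alone SEN against NC had 24 lower and a median of -0.39, BNPMT against SEN 26 higher, 10 lower and 0.49, and BNPMT against NC 5 higher and -0.0128. With the length trend taken out the medians were -0.12, 0.16 and 0.00738, and BNPMT against NC had 8 higher and 4 lower. Medians over all genes were then -0.253, 0.256 and 0.0137, so the length correction also shifted the genes as a whole. Length-corrected values of single genes include that shift. Medians were 0.122 and -0.0822 for SEN against NC and BNPMT against SEN with DESeq2's size factors, 0.122 and -0.0821 with its Wald test, 0.129, -0.296 and -0.0116 without a filter, and -0.0725 for BNPMT against SEN without SEN 1 and BNPMT 1. In SEN against NC total counts alone turned Trim27 to -0.29, Trim33 to -0.16, Trim37 to -0.12, Trim41 to -0.16, Trim47 to -0.15, Trim63 to -0.0681 and Trim66 to -0.24, and the length correction turned Trim66 to -0.0724. In BNPMT against SEN they turned Trim27 to 0.23, Trim37 to 0.26, Trim41 to 0.10, Trim44 to 0.21, Trim46 to 0.11 and Trim47 to 0.19, and the length correction turned Trim37 to 0.19 and Trim44 to 0.0736. In BNPMT against NC 7 genes that did not pass changed sign. Trim14 was 0.0445 with total counts alone, 0.376 with the length correction, and -0.135 to 0.113 with 1 library left out. Trim17 was 0.27 without SEN 1 and BNPMT 1, and -1.76 to 1.37 with 1 library left out. Trim28 was 0.032 with total counts alone, 0.000471 with the length correction, 0.0131 without SEN 1 and BNPMT 1, and -0.043 to 0.0173 with 1 library left out. Trim36 was 0.15 with the length correction. Trim59 was -0.000698 and -0.000103 with DESeq2's size factors and test, and -0.0636 to 0.137 with 1 library left out. Trim69 was 0.14 with the length correction, 0.00269 without SEN 1 and BNPMT 1, and -0.679 to 0.117 with 1 library left out. Trim72 was -0.413 to 1.37 with 1 library left out, lowest without BNPMT 3. Deviations of libraries with the same replicate number had correlations of -0.4 to 0.129. With 3 libraries per group these cannot show whether a number marks a shared culture or animal. A replicate block gave 15 higher and 14 lower in SEN against NC. It ended the calls of Trim44 there and of Trim23 and Trim24 in BNPMT against NC, and no other. The cause of these shifts was not tested. Genes near the floor are limited by depth: 3 reads were 0.0715 to 0.0961 CPM.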
